A study of Mus musculus with 8 samples.

Results

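The genes described here are 34 of the 32285 genes in the table, taken by symbol: 15 genes of glucose uptake and glycolysis, 3 of pyruvate and lactate handling, 3 of oxygen sensing and 13 other targets of the hypoxia response. They were read in CD45+ immune cells recovered from grafts of NIT-1 cells, an insulin-producing beta cell line derived from a NOD mouse. WT or Rnls mutant (Rnls mut) NIT-1 cells had been placed under the skin of opposite flanks of immunodeficient NOD.scid mice, and the hosts later received, by vein, splenocytes of NOD mice that had recently become diabetic. Grafts were taken 10 or 17 days after that transfer, which gave 16 grafts, 4 for each genotype on each day. Every graft was exposed to splenocytes, so no group shows the cells without the autoimmune attack. The hosts carry the scid mutation, lack mature T and B cells of their own and keep their myeloid cells. The Rnls mutation was in the grafted cell line and not in the sorted cells, so the level of Rnls in CD45+ cells is no check of the labels. CD45+ cells negative for propidium iodide were sorted, a hashtag antibody told the grafts apart, and 1 droplet library was made per genotype and day. A difference between groups and a difference between libraries therefore cannot be told apart. WT and Rnls mut grafts shared hosts by design, but the labels do not tie a hashtag number to a mouse.

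Glycolysis breaks glucose down to pyruvate, and cells that rely on it turn pyruvate into lactate and export it. When oxygen falls, prolyl hydroxylases no longer mark the transcription factor HIF-1α for degradation, and it then raises genes of glucose uptake, glycolysis, lactate export, mitophagy and vessel growth. Activated macrophages and T cells raise many of the same genes in normal oxygen too, so the list reads both activation and oxygen supply.

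HIF binds DNA around the core ACGTG or GCGTG. In RefSeq's GRCm38.p6 annotation, promoter windows of 300 bases (250 before and 50 after each start) were at hand for 31 members, Ero1l among them under its newer name, and not for Slc2a3, Bnip3l and Ndrg1. ACGTG was found on either strand in at least 1 window of 24 of the 31 (77.4%), against 21.8% of 27025 genes. By window this was 27 of 45 (60%) against 19.6% of 32851 windows, and with either core it was 35 of 45 (77.8%) against 43.8%. Member windows were richer in GC (median 65%) than all windows (52.7%). Among windows with 60 to 70% GC the shares were 15 of 23 (65.2%) and 27.3%. Windows of Tpi1, Gpi1, Eno1, Pdk1, Kdm3a, Pfkl and Pfkp held no ACGTG, which says only that these letters are not in these windows. The stretches holding the core in 5 members described most below are shown 5′ to 3′ on the gene's own strand, with ACGTG or its reverse complement CACGT in capitals. In Ldha, which encodes lactate dehydrogenase A, 2 of the stretches in capitals are the palindrome CACGTG, read on both strands. The stretches lie at chr4:119108684-119108738 (forward strand), chr6:82774477-82774704 (reverse strand), chr7:46845634-46845799 (forward strand), chrX:106186925-106186998 (forward strand) and chr12:54204074-54204124 (reverse strand), all before the start in that order of genes:
Slc2a1: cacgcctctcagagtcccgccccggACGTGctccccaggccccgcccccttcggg
Hk2: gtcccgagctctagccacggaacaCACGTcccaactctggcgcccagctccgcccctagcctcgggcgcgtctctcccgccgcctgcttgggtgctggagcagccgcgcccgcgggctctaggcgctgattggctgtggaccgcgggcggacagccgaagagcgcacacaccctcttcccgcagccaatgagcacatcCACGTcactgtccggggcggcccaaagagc
Ldha: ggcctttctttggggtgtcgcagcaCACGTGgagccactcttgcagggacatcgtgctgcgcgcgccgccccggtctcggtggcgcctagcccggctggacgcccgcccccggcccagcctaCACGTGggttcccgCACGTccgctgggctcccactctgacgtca
Pgk1: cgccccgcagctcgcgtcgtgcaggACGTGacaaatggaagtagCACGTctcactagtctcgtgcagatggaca
Egln3: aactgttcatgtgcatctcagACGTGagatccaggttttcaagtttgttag

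The table held raw counts of unique molecular identifiers (UMIs) for 22441 cells, with a median of 3520 UMIs per cell and between 1742746 and 9729233 UMIs per graft. Members took 673306 of 102058316 UMIs (0.660%), of which Gapdh alone gave 16.6%. Levels are given as CPM, the UMIs of a gene for each 1000000 UMIs of the cells summed, from the ends of transcripts and not per length, so they are compared between groups and not between genes. Of 22399 distinct barcodes, 42 occurred in more than 1 library. The deposited cell types carried their own markers, except that the CD4 T cell list was highest in Treg and the monocyte list was about as high in macrophages (13658) as in monocytes (12998). Markers of beta cells, fibroblasts and erythroid cells reached at most 8.35, 16.4 and 6.65 CPM in any type.

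One graft stood apart. In WT day 17 graft 3 the summed level of the members was 2.16 to 3.80 times the mean of the other WT grafts of that day in all CD45+ cells and in the 7 cell types where it had at least 10 cells. It held the highest value of the grafts of its group for 29 of 34 members in all CD45+ cells (27.1% of all genes) and for 28 of 32 in macrophages (29.1%). The counts were 24 of 30 in monocytes (32.2%), 20 of 26 in dendritic cells (18%), 28 of 30 in CD4 T cells (29%), 21 of 27 in CD8 T cells (30.8%), 17 of 22 in Treg (35.7%) and 17 of 21 in NK cells (20.6%). Macrophages made up 79.6% of its cells, the largest share of any graft, and it held 24 monocytes, 18 CD8 T cells and 69 CD4 T cells. In its macrophages, 9 of 21 other hypoxia genes tested were also at their highest, among them Car9, Hilpda and Plin2, against 29.1% of all genes. So were 7 of 13 other glycolysis and lactate genes, 4 of 7 pentose phosphate genes and 5 of 11 pyruvate dehydrogenase and pyruvate carrier genes. None of 8 macrophage markers and none of 10 dissociation response genes were at their highest there. Of those 10 dissociation response genes it held the highest value of its group for 6 in CD8 T cells, 4 in CD4 T cells, 1 in NK cells and 0 in all CD45+ cells, and their part in its levels was not tested. Results that include WT day 17 are therefore given with and without this graft. It was set apart by its high levels of these members, so leaving it out lowers most of them in WT day 17 by that choice. The share of all genes does not correct for this, and values without the graft are a description and no separate evidence.

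Across cell types, the summed level of the members was highest in Treg (7999 ± 2282 CPM, SD, n = 14 grafts) and lowest in NK cells (4303 ± 2450, n = 16). Between them lay Stem-Progenitor cells (7658 ± 1040, n = 12), granulocytes (7044 ± 1221), macrophages (6763 ± 2422), CD4 T cells (6696 ± 2446), monocytes (6622 ± 2394), CD8 T cells (5640 ± 2526), ILC-1 (5117 ± 2267) and dendritic cells (4459 ± 1430), and neighbours in this order differed by less than their SD. These means pool both days, with unequal numbers of grafts per day in some types. In day 10 grafts alone Treg stayed highest (8805 ± 1902) and NK cells lowest (3985 ± 980). Macrophages (8483 ± 1668) then came next after Treg, above Stem-Progenitor cells (8062 ± 809) and granulocytes (7318 ± 1287). Stem-Progenitor cells were not tested, since 1 WT day 17 graft held at least 10 of them, with 12 cells. Their Ldha was at 963 ± 7.08 CPM in WT and 1077 ± 168 in Rnls mut grafts of day 10 (SD, n = 4), above Treg, at 734 ± 194 and 719 ± 136. Single members differed far more. Slc2a3, the high-affinity glucose transporter, was at 112 ± 74.9 in CD4 T cells and at 1.63 ± 1.42 in macrophages, where it was too low to be tested. Vegfa, the vessel growth factor, was at 365 ± 164 in granulocytes and 153 ± 70.3 in macrophages, against 1.45 ± 1.12 in CD4 T cells and 0.802 ± 1.69 in CD8 T cells. Vegfa was thus close to 0 in T cells, and Slc2a3 close to 0 in macrophages. Slc16a3, the lactate exporter, was at 685 ± 250.4 in granulocytes, and Hif1a, the oxygen-regulated subunit of HIF-1, was at 1382 ± 181 in Treg. Of the 9 types tested, Treg held the highest mean for 11 members, among them Ldha, Hif1a, Egln1 and Ero1l. Granulocytes held it for 10, among them Slc2a1, Hk2, Pkm, Slc16a3 and Bnip3, and macrophages for 7, among them Tpi1, Pgam1 and Mif. Cell types were called by the authors from the same genes, so these levels are a description.

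**Figure D1:**
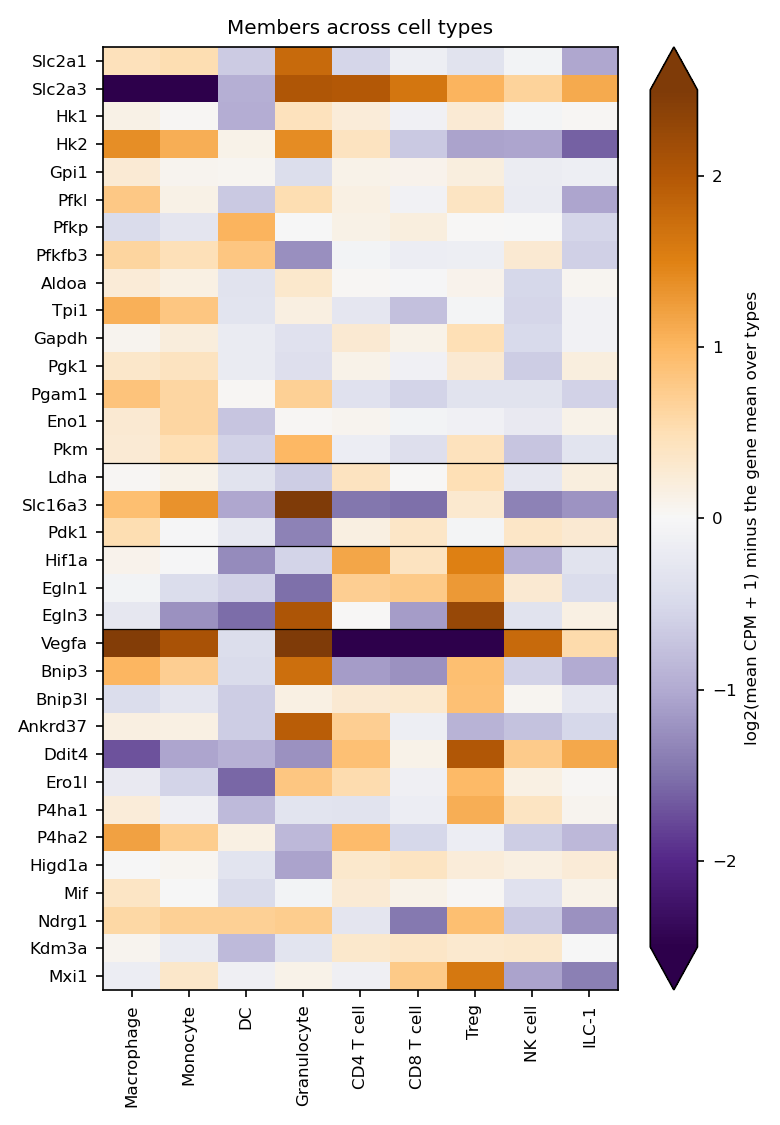
Mean level of each member in each cell type, as log2(mean CPM + 1) minus that gene's mean over the types, with members in rows and cell types in columns. Slc2a3 stands high in T cells and granulocytes and low in macrophages and monocytes, and Vegfa stands high in granulocytes, macrophages, monocytes and NK cells and low in T cells.

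In macrophages, which made up 7179 of the cells, the summed level was lower at day 17 than at day 10 in every Rnls mut graft. It was 10804, 8312, 10492 and 9021 CPM in the Rnls mut day 10 grafts 1 to 4 and 5505, 4219.9, 6031 and 3823 in those of day 17, and the groups did not overlap (the mean over grafts of the log2 summed level differed by -0.997, with no test). In WT grafts it was 8448, 8213, 6407 and 6170.4 at day 10 and 3956, 3324, 8732 and 4746 at day 17. There graft 3 lay above all the day 10 grafts while the other 3 lay below them, and the means of the log2 summed level differed by -0.58 with that graft and by -0.87 without it. At day 10 the Rnls mut grafts were higher than WT on average (9657 ± 1187 against 7309.6 ± 1187), but the groups overlapped. Over all CD45+ cells the means were 6226 ± 553 (WT) and 7952 ± 703 (Rnls mut) at day 10 and 5388 ± 2606 and 4870 ± 897 at day 17 (SD, n = 4).

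**Figure D2:**
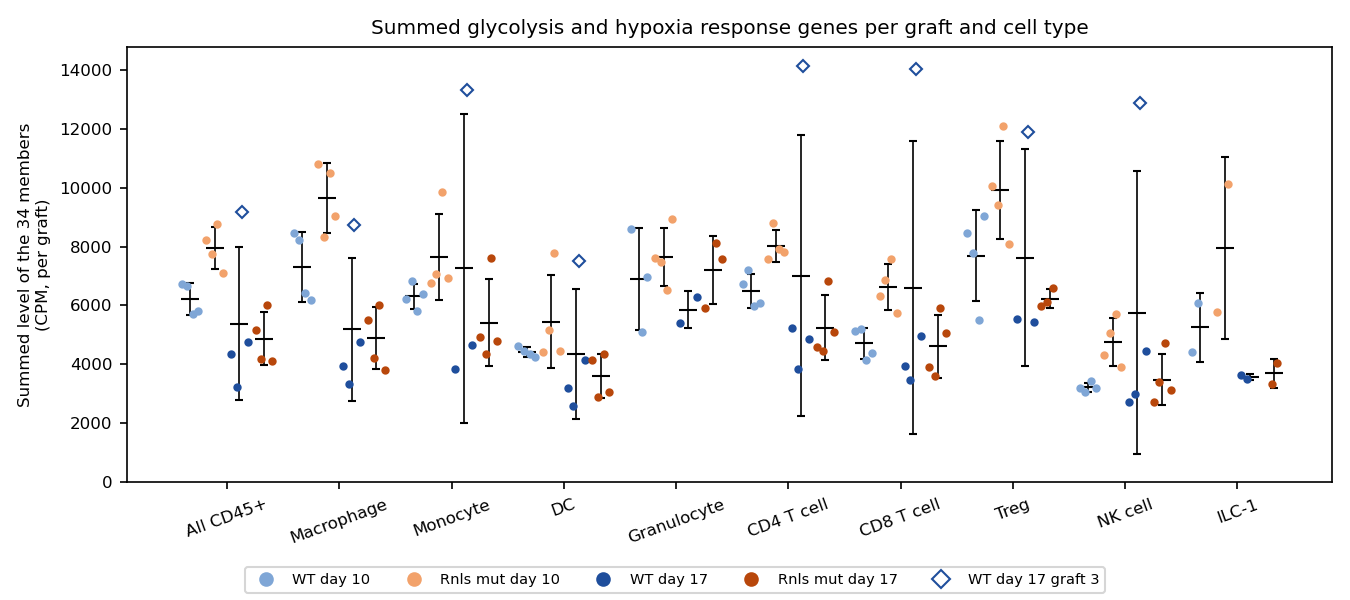
Summed level of the 34 members in CPM for each graft (points) by cell type and group, with lines and bars for mean ± SD and WT day 17 graft 3 as an open diamond. In macrophages the Rnls mut day 10 grafts sit between 8312 and 10804 and those of day 17 between 3823 and 6031, while WT day 17 graft 3 at 8732 sits above the other WT day 17 grafts.

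Each gene was tested with edgeR's quasi-likelihood test on UMIs summed per graft, adjusted over all genes tested (Benjamini-Hochberg), and p-values then measure the spread between grafts. A percentage in parentheses beside a count of members is the share of all genes tested in that comparison that met the same rule. Counts given without such a share are a description and not a result about the members. In macrophages, 20 of 32 members in Rnls mut grafts were lower at day 17 than at day 10 at an adjusted p of 0.05 (21.4%) and none was higher (20.7%, and 0 members at an unadjusted p of 0.05 or by DESeq2 as well). Slc2a3 and P4ha2 were too low to be tested. The median log2 fold change of the tested members was -1.10, against 0.02 over all genes. By role, 9 of 14 tested genes of glucose uptake and glycolysis fell, with 2 of 3 of pyruvate and lactate, 3 of 3 of oxygen sensing and 6 of 12 other hypoxia targets.

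Among the genes of glucose uptake and glycolysis, Slc2a1, the glucose transporter GLUT1, was at 138, 77.6, 141 and 105 CPM in the Rnls mut day 10 grafts and at 32.9, 36.8, 44.9 and 25.6 in those of day 17. It fell by 1.82 ± 0.29 on the log2 scale (standard error, adjusted p = 1.32e-04), and every day 17 graft lay below every day 10 graft. Pfkl, the liver form of phosphofructokinase, was at 74.3, 54.6, 65.2 and 55.4 and then at 27.7, 20.0, 31.7 and 18.8 (log2 fold change -1.45 ± 0.26, adjusted p = 2.89e-04). Aldoa, the aldolase, was at 1160.5, 888, 1035 and 918 and then at 552, 419, 600 and 366 (-1.18 ± 0.23, adjusted p = 5.47e-04). These genes serve entry, commitment and cleavage of the sugar, and each fell without overlap between the days. Gapdh, which makes the first NADH of the pathway, was at 1666, 1297, 1696 and 1400.2 and then at 704, 483, 824 and 504 (-1.40 ± 0.25, adjusted p = 3.61e-04). Pgam1, the phosphoglycerate mutase, was at 506, 427, 574 and 521 and then at 229, 166, 247 and 142 (-1.50 ± 0.25, adjusted p = 2.01e-04), again without overlap. The other called genes of this group were Tpi1 -1.69, Pgk1 -1.33, Eno1 -1.16 and Pkm -1.36, the isomerase, the kinase, the enolase and the pyruvate kinase of the lower pathway. The groups did not overlap for Gapdh either. Hk2, the inducible hexokinase, had a log2 fold change of -0.29 ± 0.16 and was not called (adjusted p = 0.153), nor were Hk1, Gpi1, Pfkp and Pfkfb3.

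Ldha fell by 1.02 ± 0.25 and Slc16a3 by 1.14 ± 0.42, while Pdk1, a kinase that inhibits pyruvate dehydrogenase, was not called (-0.75). All the oxygen-sensing members fell: Hif1a with -1.05 ± 0.20, and the prolyl hydroxylases Egln1 with -0.59 and Egln3 with -2.41 ± 0.48. Of the other targets, Higd1a, a mitochondrial protein of the hypoxia response, was at 270.4, 204, 279 and 288 in the day 10 grafts and at 128, 82.4, 131 and 76.7 in those of day 17 (-1.44 ± 0.23, adjusted p = 1.22e-04). The groups did not overlap for Higd1a. The other called targets were Ddit4 -2.70, Ero1l -1.79, Ankrd37 -1.69, Mif -1.39 and Bnip3 -0.94, which include an mTORC1 inhibitor (Ddit4), an oxidase of protein folding (Ero1l), the cytokine MIF and a mitophagy receptor (Bnip3). Vegfa was lower by a log2 fold change of -0.88 ± 0.40 and was not called (adjusted p = 0.0861).

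In macrophages of WT grafts, 7 of 32 members were lower at day 17 (13.1% of all genes) and 1 was higher (12%) with all grafts. Without graft 3, left out for its high levels of these members, the counts were 21 lower (12.7%) and 1 higher (11.2%). With all grafts the lower members were Hk2 -1.07, Hif1a -0.93, Higd1a -0.95, Mif -0.94, Tpi1 -0.93, Slc2a1 -0.91 and Aldoa -0.82 and the higher was Kdm3a 0.58, a histone demethylase. Hk2 in WT macrophages was at 371, 431, 368 and 315 at day 10 and at 223, 173, 259.6 and 136 at day 17 (log2 fold change -1.07 ± 0.16, adjusted p = 2.04e-04), and all day 17 grafts, graft 3 included, lay below those of day 10. Ldha was at 582, 528, 416 and 477 at day 10 and at 258, 295, 715 and 295 at day 17, where graft 3 lay above every day 10 graft and the others below. Its log2 fold change was -0.53 ± 0.25 with graft 3 and -0.99 ± 0.17 without (adjusted p = 0.133 and 6.80e-04). Pgk1 went from -0.62 to -1.21, Bnip3 from -0.13 to -0.85 and Vegfa from -0.54 to -0.72 when that graft was left out, and of these Pgk1 and Bnip3 were called without it. Egln3 had a log2 fold change of -0.84 with all grafts and was called without graft 3, which held 38 of the 41 Egln3 UMIs of that group, so no fold is given there. The median over the members moved from -0.53 to -1.03. With library sizes alone in place of TMM the median of all genes rose from 0.03 to 0.21 and the WT split was 4 lower and 2 higher.

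**Figure D3:**
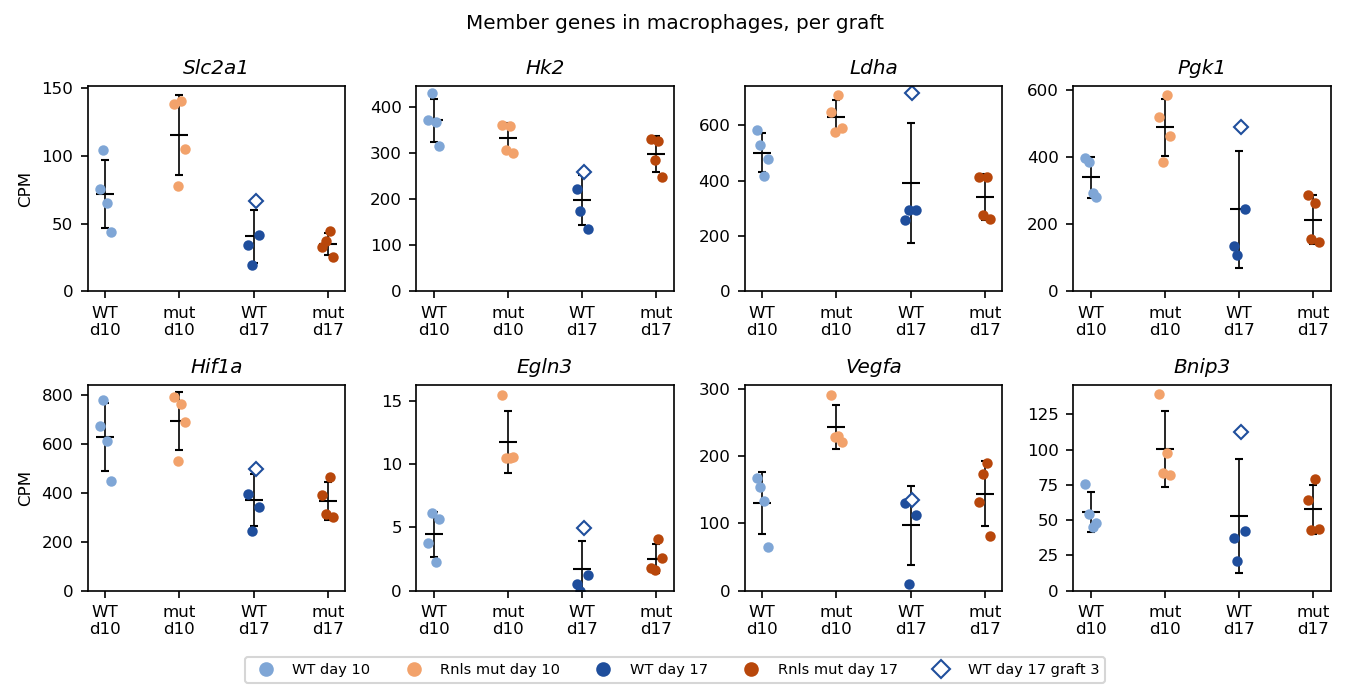
CPM of 8 members in macrophages, 1 point per graft and group, with lines and bars for mean ± SD and WT day 17 graft 3 as an open diamond. Slc2a1 and Hif1a lie lower at day 17 in both genotypes, and Ldha and Pgk1 of WT graft 3 lie apart from the other WT grafts of day 17.

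**Figure D4:**
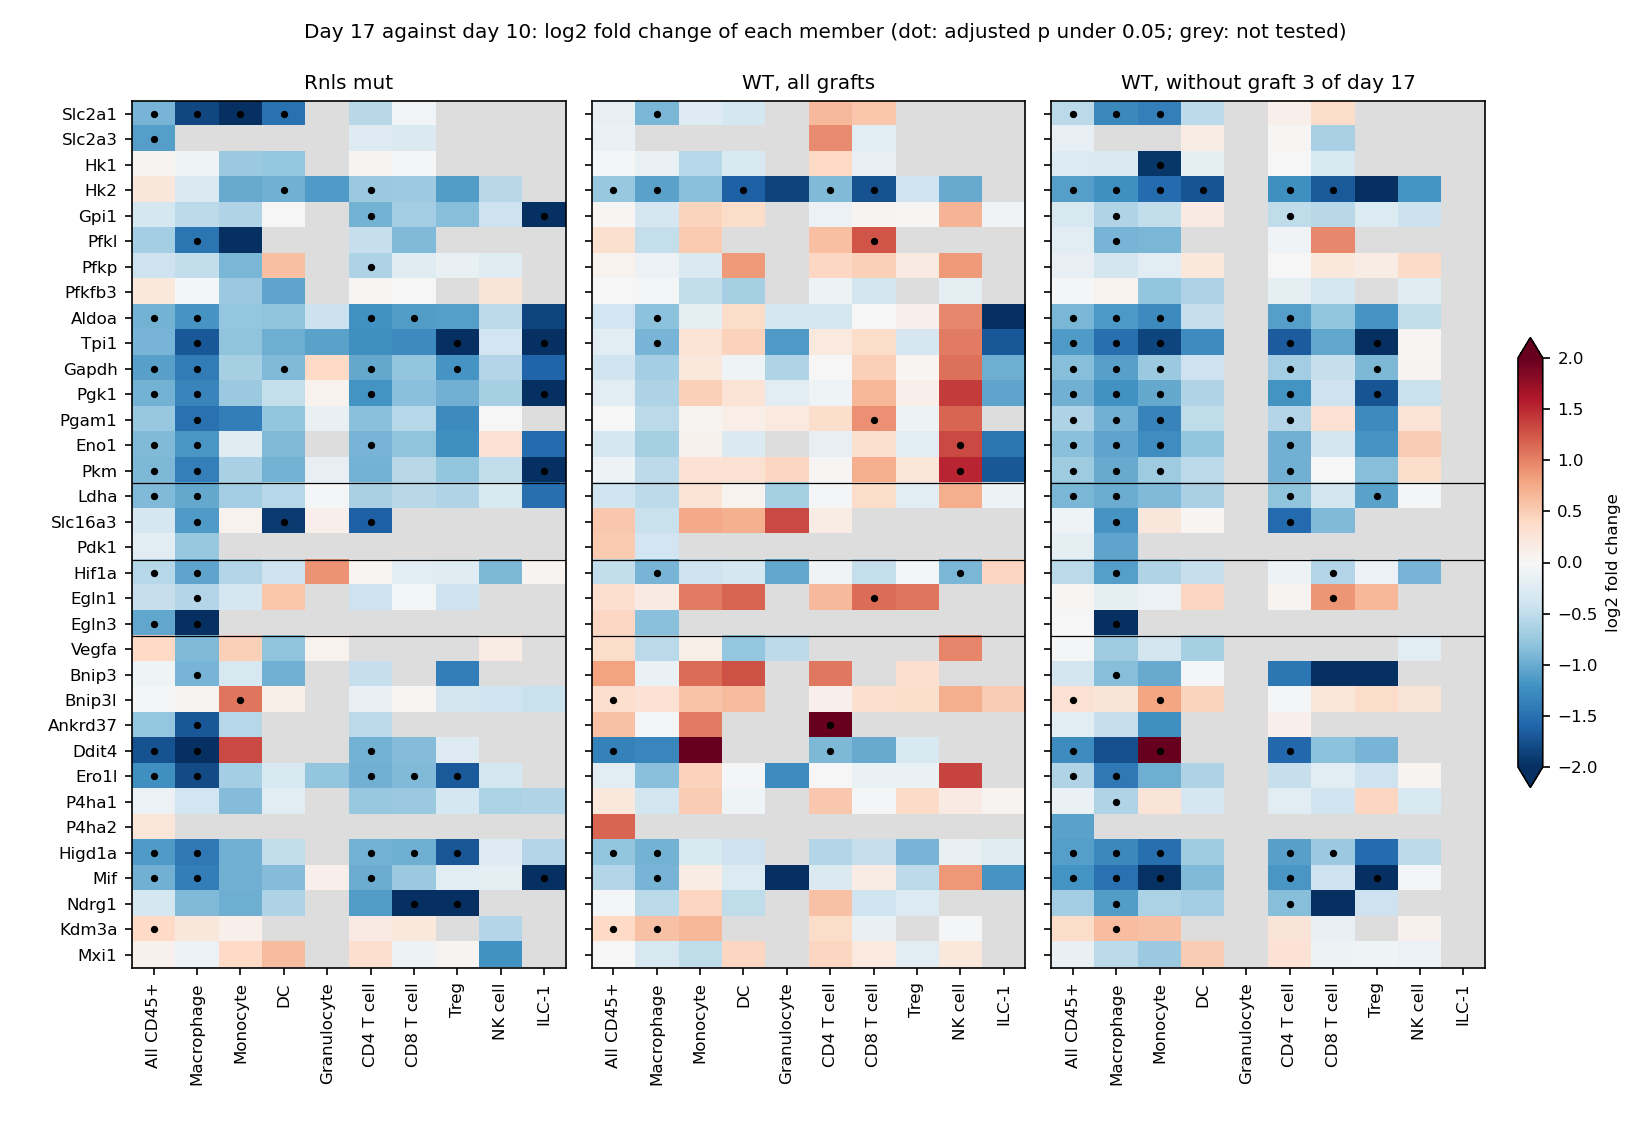
Log2 fold change from day 10 to day 17 of each member (vertical axis) in each cell type (horizontal axis), in Rnls mut, in WT, and in WT without graft 3, with a dot at an adjusted p under 0.05 and grey where a member was not tested. In macrophages 20 members are marked lower in Rnls mut, 7 in WT and 21 in WT without graft 3.

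Other measures differed between the days. Macrophages were 7.41 to 26.9% of cells at day 10 and 29.9 to 79.6% at day 17. Their summed macrophage markers (8 of 8 with UMIs) lay between 10472 and 19425 CPM at day 10 and between 22038 and 35772 at day 17, and 10 dissociation response genes summed to between 8102 and 18674 at day 10 and between 4043 and 9197 at day 17. The median UMIs per macrophage were 5286 to 6341 in Rnls mut day 10 grafts and 3276 to 3831 at day 17, against 5300 to 6316 and 6772 to 8049 in WT. The part of these in the lower levels of the members was not tested.

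The authors' clusters took shares of the macrophages that differed between the days. Cluster 4, led by Gm15056, Inhba, Slpi and Procr, was 70.9% of Rnls mut and 54.2% of WT macrophages at day 10 but 5.07% and 8.28% at day 17. Its summed level of the members was 9709 CPM, the highest of the clusters with enough cells. Values within single clusters were added after seeing the data. Within cluster 4, Rnls mut grafts lay between 10311 and 11332 at day 10 and between 5898 and 8850 at day 17 (n = 4 and 3), and 32 of 34 members had a lower mean at day 17. For 18 members every day 17 graft lay below every day 10 graft, and for 1 every one lay above. In WT, grafts with enough cells in cluster 4 at day 17 numbered 2, at 6696 and 11566, the latter being graft 3, and 10 of 34 members had a lower mean. There 2 members had every day 17 graft below those of day 10 and 6 had every one above. Within cluster 5, led by Gm26917, Gm42418 and Xylt1, 26 of 34 members had a lower mean at day 17 in Rnls mut and 24 of 34 in WT. Every day 17 graft lay below every day 10 graft for 6 members in Rnls mut and 0 in WT, and above for 1 in each. No share of all genes stands beside these counts within clusters, so they are a description. With shares held fixed over the clusters with enough cells in a graft, the means over macrophages were 8727 ± 1017 and 5517 ± 892 CPM in Rnls mut and 6747 ± 772 and 5217 ± 2474 in WT. In Rnls mut the means of the log2 summed level then differed by -0.67, against -0.997 at the shares found. Those clusters held 55.5 to 80.3% of the weights in Rnls mut day 10 grafts and 92.3 to 100% in those of day 17. In WT they held 90.9 to 100% at day 10 and 66.8 to 92.3% at day 17. The days therefore do not cover the same clusters, and the part of cluster shares left in -0.67 was not tested.

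In monocytes of Rnls mut grafts, 1 of 30 members fell (1.92% of all genes) and 1 rose (1.27%) with all grafts. That count rested on single grafts. Without WT day 17 graft 3, whose spread the fit shares, 10 of 30 were lower (4.45%), namely Slc2a1, Pgam1, Higd1a, Mif, Aldoa, Gapdh, Pkm, Pgk1, Pfkp and Hk2, and Bnip3l was higher (1 of 30, 2.64%), while without Rnls mut day 17 graft 1 or graft 2 none was called by edgeR's test, with 8 lower and 2 higher, and 4 lower and 1 higher, at an unadjusted p of 0.05. Slc2a1 was at 104, 113, 101 and 94.0 in the day 10 grafts and at 7.90, 29.2, 39.0 and 48.7 in those of day 17, and fell by 2.08 ± 0.48 with no overlap. These levels came from 471 UMIs at day 10 and 10 at day 17, so the size of the fall is rough. Bnip3l, a mitophagy receptor, rose by 1.06 ± 0.25. Hk2, Ldha, Pgk1, Bnip3, Vegfa and Hif1a had log2 fold changes of -1.01, -0.69, -0.73, -0.31, 0.48 and -0.59, none called with all grafts. The 10 dissociation response genes summed to 4885 to 9960 CPM in monocytes of Rnls mut day 10 grafts and to 2623 to 3627 at day 17, and their part was not tested. Egln3 was too low to be tested in monocytes and dendritic cells. In WT monocytes none of 30 was lower by edgeR's test with all grafts (1.78% of all genes, with 1 member at an unadjusted p of 0.05 and 0 by DESeq2) and none was higher (2.06%, with 4 at an unadjusted p of 0.05 and 0 by DESeq2), and 12 were lower (7.98%) and 2 higher (7.31%) without graft 3, which left 2 grafts at day 17. In that fit Tpi1 (-1.84), Mif (-1.98) and Hk2 (-1.54) were among the lower and Bnip3l (0.79) and Ddit4 (2.92) were the higher. With all grafts Slc2a1, Hk2, Ldha, Pgk1, Bnip3, Vegfa and Hif1a had -0.26, -0.83, 0.27, 0.47, 1.12, 0.12 and -0.41 in WT.

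In dendritic cells of Rnls mut grafts, 4 of 26 members fell (7.04%) with all grafts, 6 of 27 were lower (7.45%) and Slc2a3 was higher (1 of 27, 8.95%) without WT day 17 graft 3, and 2 were called without Rnls mut day 17 graft 2 or graft 4. With all grafts they were Slc2a1 -1.49, Hk2 -0.96, Gapdh -0.88 and Slc16a3 -1.91, with Slc16a3 at 36.4, 28.4, 51.3 and 19.8 in the day 10 and 14.3, 4.21, 7.92 and 0 in the day 17 grafts. Ldha, Pgk1, Bnip3, Vegfa and Hif1a had -0.57, -0.47, -0.97, -0.80 and -0.41, none called. In WT dendritic cells Hk2 alone was called, with -1.63 (1 of 26 members, 4.77%), at 163, 214, 235 and 195 at day 10 and 53.8, 77.5, 69.6 and 44.3 at day 17, and so without graft 3 (-1.73, 1 of 27, 3.53%). For Hk2 in WT and for Slc16a3 in Rnls mut, no day 17 graft reached the day 10 range. Slc2a1, Ldha, Pgk1, Bnip3, Vegfa and Hif1a had -0.35, 0.06, 0.27, 1.28, -0.77 and -0.35 in WT dendritic cells. Macrophage markers (8 of 8 with UMIs in each group) summed to 219 to 1202 CPM in dendritic cells of Rnls mut day 10 grafts and to 1016 to 1562 at day 17, and dissociation response genes (10 of 10) to 3790 to 8504 and 2428 to 4519. The part of either in these levels was not tested.

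Granulocytes were few, 369 cells, and 13 members could be tested. None was called in Rnls mut (1.4% of all genes lower and 1.4% higher, 0 members at an unadjusted p of 0.05 and 0 by DESeq2). In WT none was called either (1.62% of all genes lower and 1.08% higher), with 1 lower and 1 higher at an unadjusted p of 0.05, and DESeq2 called 1 lower and 0 higher. The lower was Mif, at 406, 534 and 294 CPM in the WT day 10 grafts with enough cells and at 52.3 and 75.4 in those of day 17 (-2.59 ± 0.77, adjusted p = 0.0621). The higher was Slc16a3, at 369, 229 and 588 and then at 1172 and 679 (1.32 ± 0.40, adjusted p = 0.0684 by edgeR's test). For both genes the day 17 grafts lay outside the day 10 range. Hk2, Ldha, Pgk1, Vegfa and Hif1a had log2 fold changes from day 10 to day 17 of -1.13, -0.04, 0.08, 0.07 and 0.90 in Rnls mut. In WT granulocytes the same genes had -1.85, -0.67, -0.22, -0.52 and -1.04, so Hif1a differed in sign between the genotypes, without a call in either.

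In CD4 T cells of Rnls mut grafts, 12 of 30 members fell (10.4%): Gpi1 -0.94, Higd1a -0.95, Ero1l -0.97, Aldoa -1.22, Gapdh -1.03, Hk2 -0.75, Pgk1 -1.20, Ddit4 -0.94, Pfkp -0.62, Mif -0.99, Slc16a3 -1.64 and Eno1 -0.93. Without WT day 17 graft 3 it was 18 of 30 that were lower (12.1%), and 5 to 7 were called without Rnls mut day 17 graft 1 or 2 or day 10 graft 2. Higd1a was at 295, 318, 273 and 254 and then at 163, 126, 192 and 135, with no overlap. In WT CD4 T cells, Hk2 -0.89 and Ddit4 -0.90 fell (2 of 30, 10.1%) and Ankrd37, an ankyrin repeat protein induced by HIF, rose with 2.01 (1 of 30, 10.6%), and without graft 3 it was 15 of 30 that were lower (11.6%) with Ankrd37 at 0.10. Scaled by library sizes alone the WT split was 1 lower and 3 higher, with the median of all genes at 0.20. Macrophage markers summed to 996 to 1218 CPM in CD4 T cells of Rnls mut day 17 grafts and to 70.7 to 367 in the other groups, and their part in these levels was not tested.

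Of 27 members in Rnls mut CD8 T cells, 4 fell (4.56%): Higd1a -0.97, Ero1l -0.89 and Aldoa -1.12, and Ndrg1, a stress-response gene with 132 UMIs at day 10 and 3 at day 17, too few for a fold. Without WT day 17 graft 3 it was 15 of 29 that were lower (5%), and 1 was called without Rnls mut day 17 graft 2. In WT, Hk2 was lower with -1.75 (1 of 27, 6.32%), and Egln1 1.12, Pfkl 1.25 and Pgam1 0.91 were higher (3 of 27, 5.41%), with 18 CD8 T cells in graft 3. Without it, Hk2, Higd1a and Hif1a were lower (3 of 29, 5.17%) and Egln1 was higher (0.88, 1 of 29, 4.05%). In Treg of Rnls mut grafts 5 of 22 fell (3.43%), Ndrg1 -2.45, Tpi1 -2.20, Higd1a -1.71, Ero1l -1.68 and Gapdh -1.18. The count was 8 of 22 (4.26%) without WT day 17 graft 3 and 2 without Rnls mut day 17 graft 2. In WT Treg none was lower (4.55%, 1 at an unadjusted p of 0.05, 0 by DESeq2) and none higher (3.99%, 1 at an unadjusted p of 0.05, 0 by DESeq2) with all grafts, but 5 of 22 were lower (4.15%) without graft 3, namely Mif -2.26, Pgk1 -1.73, Ldha -1.06 and Gapdh -0.90 and Tpi1, which had 35 of its 37 UMIs of that group in graft 3 and is given no fold. In the Rnls mut grafts macrophage markers summed to 93.1 to 107 CPM at day 10 and 971 to 1384 at day 17 in CD8 T cells, and to 90.4 to 114 and 784 to 1333 in Treg, and their part was not tested.

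In NK cells none of 21 members was lower in Rnls mut (1.2%, with 2 at an unadjusted p of 0.05 and 0 by DESeq2). In WT, Pkm and Eno1 rose (Pkm 1.53 and Eno1 1.31, 2 of 21, 4.2%) and Hif1a fell by 0.92 (1 of 21, 4.87%), and without graft 3 no member was called by edgeR's test (5.41% of all genes lower and 4.2% higher, with 3 members lower and 0 higher at an unadjusted p of 0.05). Pkm in WT was at 93.9 to 187 CPM at day 10 and at 148 to 1033 at day 17, where graft 3 lay far above the rest, with 25 NK cells. With library sizes alone the NK split in WT was 0 lower and 6 higher. ILC-1 had 2 grafts per group, and 5 of 13 members fell in Rnls mut (4.69%): Mif -2.37, Gpi1 -2.32, Pgk1 -2.21 and Pkm -2.08, and Tpi1 with 42 UMIs at day 10 and 2 at day 17. Without Rnls mut day 17 graft 2 none of 14 was called by edgeR's test in ILC-1, with 7 lower at an unadjusted p of 0.05. In WT none fell (0.226%, with 5 at an unadjusted p of 0.05 and 1 by DESeq2).

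Over all CD45+ cells, where fewer cells of a type and less RNA per cell cannot be told apart, 14 of 34 members were lower in Rnls mut at day 17 (22.4%) and 1 was higher (24.3%), and 8 were called without Rnls mut day 17 graft 2. The lower were Ddit4 -1.74, Ero1l -1.23, Higd1a -1.14, Slc2a3 -1.09, Gapdh -1.08, Egln3 -1.04, Mif -0.96, Pgk1 -0.95, Aldoa -0.94, Slc2a1 -0.93, Eno1 -0.89, Pkm -0.89, Ldha -0.88 and Hif1a -0.57, and the higher was Kdm3a (0.40). In WT, Ddit4 -1.35, Higd1a -0.79 and Hk2 -0.76 were lower (3 of 34, 17.5%) and Bnip3l 0.33 and Kdm3a 0.40 higher (2 of 34, 20.5%), and without graft 3 the lower members were 14 of 34 (16.7%). With cell type shares held fixed, the sums were 6201 ± 621 and 6000 ± 3700 CPM in WT and 7999 ± 655 and 4908 ± 947 in Rnls mut at day 10 and day 17. At the shares found they were 7952 ± 703 and 4870 ± 897 in Rnls mut.

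At day 10, most members had a positive log2 fold change of Rnls mut over WT, with medians from 0.10 in granulocytes to 0.60 in ILC-1 (all genes between -0.01 and 0.06), and none was called at an adjusted p of 0.05 by edgeR or DESeq2 in any cell type. At an unadjusted p of 0.05, the members higher in Rnls mut were 8 of 34 in all CD45+ cells (3.33% of all genes), 10 of 32 in macrophages (3%), 2 of 30 in monocytes (0.952%) and 3 of 26 in dendritic cells (2.25%). They were 2 of 13 in granulocytes (4.75%), 3 of 30 in CD4 T cells (3.87%), 13 of 27 in CD8 T cells (4.19%), 8 of 22 in Treg (4.38%), 1 of 21 in NK cells (2.48%) and 2 of 13 in ILC-1 (2.66%). CD8 T cells had the lowest adjusted p, 0.173, then all CD45+ cells with 0.255, and macrophages had 0.526.

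In macrophages at day 10 the members with the smallest p were Egln3 1.43, Ddit4 1.46, Egln1 0.64, Bnip3 0.83 and Pfkl 0.58. Egln3 was at 3.75, 6.12, 2.24 and 5.64 CPM in WT and at 15.4, 10.5, 10.5 and 10.5 in Rnls mut, from 33 and 79 UMIs. Bnip3 was at 75.7, 54.0, 44.8 and 47.9 in WT and at 139, 83.4, 97.7 and 81.7 in Rnls mut. For Egln3 and Bnip3 every Rnls mut graft lay above every WT graft, without a call. Both were listed for their small p, so the lack of overlap is no further evidence. Vegfa (0.87 ± 0.40) was at 168, 154, 133 and 64.1 in WT and 292, 229, 230.4 and 221 in Rnls mut, with no overlap and no call. Slc2a1, Hk2, Ldha, Pgk1 and Hif1a had 0.64, -0.19, 0.30, 0.49 and 0.11. In CD4 T cells the smallest p values were those of Ero1l 0.51, Hk2 -0.47, Slc16a3 1.00, Pfkp 0.41 and Gpi1 0.36, in CD8 T cells of Tpi1 1.25, Pfkp 0.50, Ero1l 0.50, Egln1 0.65 and Pgam1 0.63, and in Treg of Ero1l 0.95, Egln1 0.97, Gapdh 0.61, Gpi1 0.56 and Bnip3l 0.54. In monocytes they were Slc2a1 0.54, Bnip3 0.87, Ndrg1 0.59, Vegfa 0.45 and P4ha1 0.39, in dendritic cells Ndrg1 0.91, Slc16a3 1.01, Hk2 -0.44, Slc2a1 0.52 and Bnip3l 0.36 and in granulocytes Slc16a3 0.80, Pgam1 1.12, Hif1a -0.99, Tpi1 1.03 and Vegfa -0.58. Among these listed members, Hk2 in CD4 T cells and dendritic cells and Hif1a and Vegfa in granulocytes had negative changes.

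Fitted on the day 10 grafts alone, without the spread of the day 17 grafts, the test called members higher in Rnls mut in 4 of the cell groups. In CD8 T cells they were 9 of 29 (0.242% of all genes): Tpi1 1.26, Pgk1 0.89, Aldoa 0.83, Pkm 0.75, Gapdh 0.68, Pgam1 0.63, Gpi1 0.56, Pfkp 0.50 and Ldha 0.43. In NK cells they were 4 of 27 (0.12%), Pkm 1.06, Pgk1 0.97, Aldoa 0.89 and Gapdh 0.73, in CD4 T cells 4 of 30 (0.173%), Ero1l 0.51, Pgk1 0.48, Pgam1 0.43 and Gapdh 0.40, and in all CD45+ cells 2 of 34 (0.109%), Ero1l 0.73 and Egln1 0.58. With all days but without WT day 17 graft 3, 7 of 29 were called in CD8 T cells (0.19%), Tpi1, Pgk1, Aldoa, Pkm, Gapdh, Pgam1 and Gpi1. Tpi1, the triose isomerase, was at 75.8, 80.0, 24.1 and 53.3 in WT and 135, 124, 208 and 102 in Rnls mut CD8 T cells at day 10, and Pgk1 at 188, 168, 112 and 122 and 264, 312, 342 and 210.4. The difference between the genotypes and between the 2 libraries cannot be told apart here.

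At day 17 the sign turned with graft 3, which was set apart for its high levels, so leaving it out moves the medians up by that choice. With it, medians of Rnls mut over WT were -0.20 in all CD45+ cells, -0.07 in macrophages, -0.60 in monocytes and -0.52 in CD4 T cells, and without it 0.27, 0.27, 0.27 and 0.14. At an unadjusted p of 0.05, 1 of 34 members was lower in all CD45+ cells (3.99%), 2 of 32 in macrophages (3.76%), 5 of 30 in monocytes (3.29%) and 8 of 30 in CD4 T cells (4.39%), and none was called at an adjusted p of 0.05 in any cell type by edgeR or DESeq2. Without graft 3, the members higher at an unadjusted p of 0.05 were 11 of 34 (10.9%), 5 of 32 (4.25%), 6 of 30 (3.46%) and 6 of 30 (4.71%) in the same order, and Hk2 in all CD45+ cells was called, with 1.00 ± 0.15 (adjusted p = 0.0217). Hk2 in all CD45+ cells was at 142, 96.2, 233 and 120.2 in WT and 254, 218, 249 and 189 in Rnls mut at day 17. It lay in the same direction with graft 3 (0.65, adjusted p = 0.487). Macrophages were 29.9, 30.6 and 55.5% of the cells in WT day 17 grafts 1, 2 and 4 and 57.7 to 65.5% in Rnls mut day 17 grafts. The part of these shares in the Hk2 call was not tested, and no share of all genes stands beside that call. In macrophages at day 17 the smallest p values were those of Hk2 0.60, Ankrd37 -0.89, Eno1 -0.61, Pgam1 -0.42 and Pfkl -0.39, and in granulocytes Mif was at 2.79 (adjusted p = 0.118), from 7 UMIs in WT. Slc2a1, Hk2, Ldha, Pgk1, Bnip3, Vegfa and Hif1a had -1.29, -0.45, -0.62, -0.78, -0.56, 0.81 and -0.20 in monocytes and -0.62, 0.23, -0.39, -0.50, -1.51, 0.34 and -0.14 in dendritic cells at day 17 with all grafts, and none was called.

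**Figure D5:**
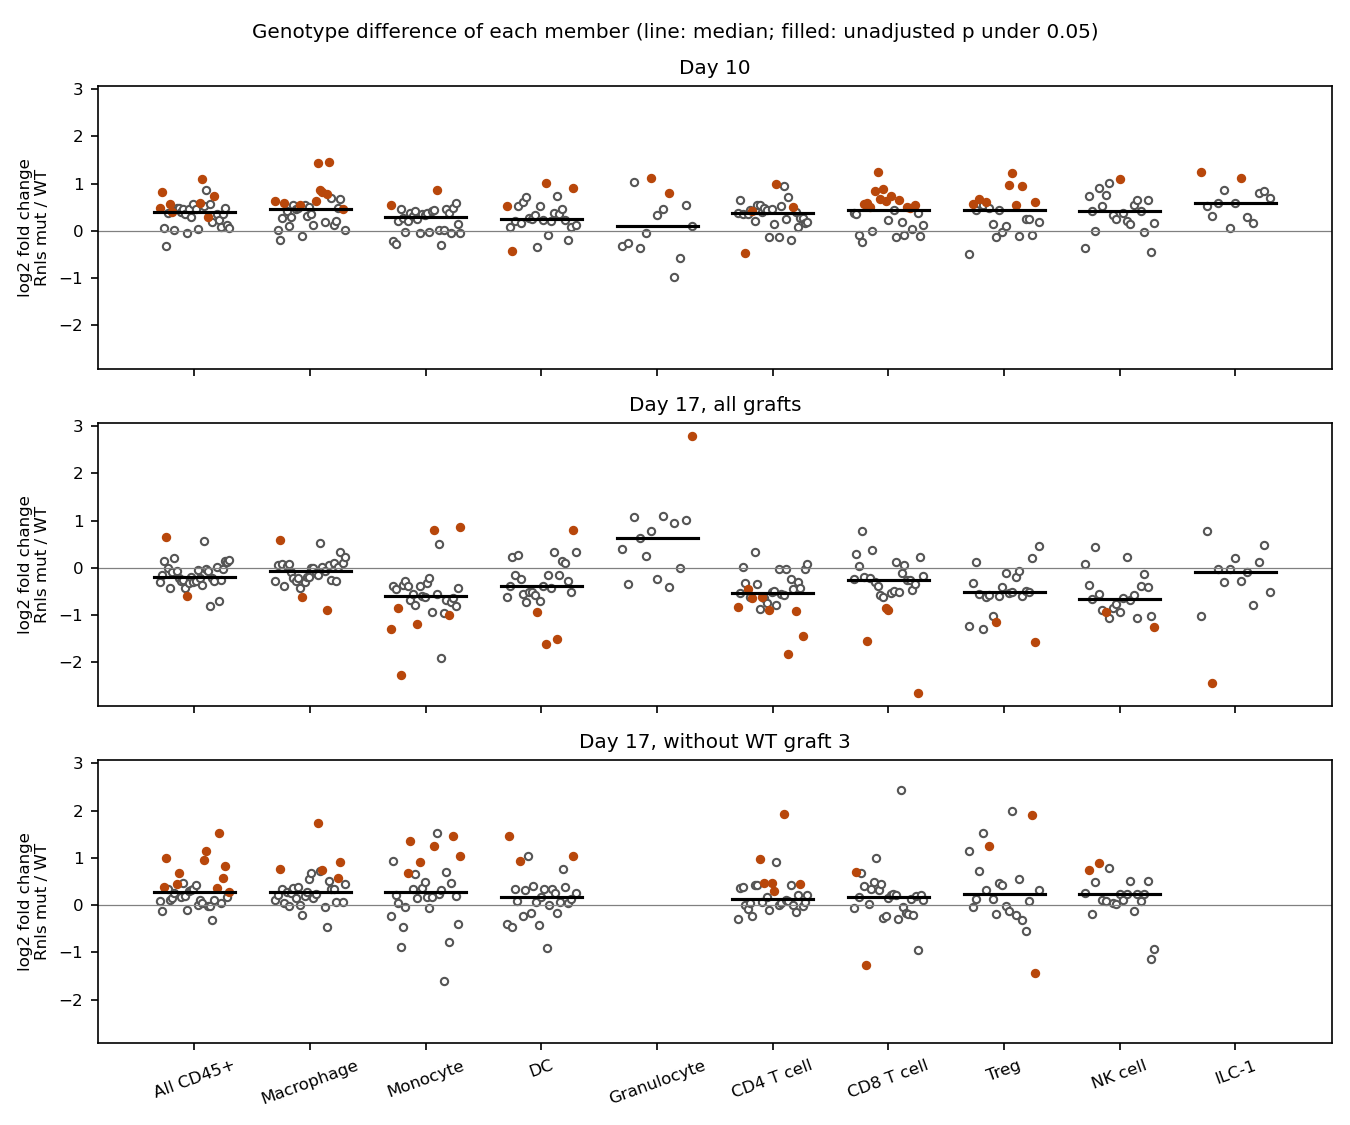
Log2 fold change of Rnls mut over WT for each tested member (points) by cell type at day 10, at day 17, and at day 17 without WT graft 3, with the median as a line and points filled at an unadjusted p under 0.05. Day 10 medians lie above 0 in every type, day 17 medians lie below 0 in most, and without WT graft 3 they lie above 0 in the types where it had enough cells.

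The difference between the genotype effects of the days was tested as such and no member passed in any cell type with all grafts, the lowest adjusted p being 0.065 for Ndrg1 in Treg and 0.085 for Pfkl in CD8 T cells. Without WT graft 3, Hk2 in all CD45+ cells was called, with a larger effect at day 17 by 1.33. The part of cell type shares in that difference was not tested.

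Other genes of the same pathways, from 4 lists, were read in macrophages, where 21.4% of all genes were lower and 20.7% higher at day 17 in Rnls mut and 13.1% lower and 12% higher in WT. In Rnls mut grafts from day 10 to day 17, of 13 tested other glycolysis and lactate genes 5 were lower, among them Hk3 (-0.97) and Galk1 (-0.66), and Slc16a7, a lactate transporter, was higher (1.82). Of 7 pentose phosphate genes, Taldo1 (-1.04) and Tkt (-0.64) were lower, and of 11 pyruvate dehydrogenase and pyruvate carrier genes 5 were lower, with Mpc1 at -0.86, Mpc2 at -0.64 and Pdhb at -0.67, while the kinase Pdk2, named after its values were seen, was higher (1.49). Of 21 other genes of the HIF pathway 7 were lower, among them Hmox1 (-1.87), Hilpda (-1.82) and Hk3, which is in both lists. The number of higher genes is not given for every list, so these counts of lower genes are a description. In WT the called genes of these lists were Slc16a7 (1.28), Taldo1 (-0.65), 4 of the pyruvate dehydrogenase and carrier genes, among them Pdhb (-0.75), and 3 HIF pathway genes, Hmox1 (-0.997), Vhl (-0.95) and Bhlhe40 (-0.70). At day 10 no gene of these lists was called between the genotypes in macrophages.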

How the data were processed

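CD45+ cells sorted from NIT-1 grafts were read as droplet single-cell RNA-seq (10x Genomics 3′ v3.1 chemistry, super-loaded), with 1 library per genotype and day and grafts told apart by hashtag antibodies. The table deposited by the authors holds raw counts of UMIs per gene and cell, with the hashtag, cluster and cell type of each cell. The submitters' processing notes name Cell Ranger and mm10. The Cell Ranger version and the rules for calling cells, hashtags and cell types are not given in the sources used here. Every deposited cell had at least 1001 UMIs, and deposited cell types were used as they stood. The separate hashtag counts were not used, and 0 columns of other samples were left out. The members and all lists were chosen with earlier results of these data known.

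Counts were summed per graft and cell type where a graft had at least 10 cells (5 within a cluster) and the type had at least 2 such grafts in each of the 4 groups. They were tested with edgeR 4.0.16 and limma 3.58.1 in R 4.3.3 (filterByExpr, TMM, glmQLFit and glmQLFTest, with all groups in 1 fit), and p-values were adjusted over all genes tested by the Benjamini-Hochberg method with calls at 0.05. Nothing in the labels says whether grafts with the same hashtag number came from 1 mouse, and p-values measure only the spread between these grafts. Same-numbered WT and Rnls mut grafts had correlations of their deviations between -0.25 and 0.40 over genes in all CD45+ cells and macrophages. With so few grafts this cannot show that pairs are absent, and the paper's legend speaks of paired biological replicates. The numbers were not taken as pairs because no label ties them to a mouse. The main tests of genotype thus treat grafts of shared hosts as independent. Scrublet in scanpy 1.11.5 called 1 cell a doublet at its own threshold, so that call was taken not to have worked, and leaving out the 6% highest scores (1346 cells) was tried instead. The other alternatives were DESeq2 1.42.0, library sizes without TMM, no filter on low counts, minimums of 1 and 20 cells, each day fitted alone, a replicate block, fixed shares and leaving out each graft. Tables and figures were made with Python 3.11.15, pandas 2.3.3, NumPy 2.4.6, SciPy 1.17.1 and matplotlib 3.10.9, and the fits were tested on simulated data.

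Members with a call were named in each comparison, or the 5 or fewer with the smallest p where none was called. Where a member was named for its call or small p, a lack of overlap between groups is no evidence beyond that test. Slc2a1, Hk2, Ldha, Pgk1, Bnip3, Vegfa, Egln3 and Hif1a were named between the days in macrophages, monocytes, dendritic cells and granulocytes where tested. Between the genotypes they were named in part of these comparisons. Of each other pathway list at most 3 called genes were named, those with the smallest p.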

Additional observations from a re-analysis of the deposited data

Results flagged for a closer look

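In 8 of the 78 groups of 4 grafts examined, 1 graft lay apart from the others by Dixon's criterion, where chance gives about 1 in 20 for a single group. The groups share grafts and genes, with Ldha part of the pyruvate and lactate sum, so the 8 cannot be weighed against that rate. WT day 17 graft 3 was that graft in 4 of them. Its summed level of the members did not meet the criterion in macrophages, at 8732 against 3324 to 4746. Nor did it in all CD45+ cells, at 9174 against 3240 to 4777. It met the criterion with a summed level of the members of 14115 CPM in CD4 T cells against 3840.03 to 5231 in the other grafts of its group, and 14015 in CD8 T cells against 3462 to 4974. In its macrophages the pyruvate and lactate genes summed to 859 against 283 to 371, and Ldha alone was at 715 against 258 to 295. Grafts numbered 3 also stood out in monocytes of Rnls mut, with a summed level of 9839 against 6772 to 7053 at day 10 and of 7602 against 4365 to 4915 at day 17. Rnls mut day 10 graft 1 stood out in macrophages for Egln3, at 15.4 against 10.5 in each of the other grafts, and for Vegfa, at 292 against 221 to 230.4.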

How the results depend on the processing

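The fall of the members in macrophages of Rnls mut grafts kept its direction, with 17 to 23 members called with any 1 graft left out, against 20 with all. The difference between the days in the mean log2 summed level per graft was -0.997, and it ranged from -1.11 to -0.89 with 1 graft left out. It was -0.67 at fixed cluster shares, where the days do not cover the same clusters. In alternatives chosen after seeing the data it was -0.60 in cluster 4 alone and -0.39 in cluster 5 alone. In WT macrophages it ranged from -0.87 to -0.40 and was 0.039 in cluster 4 alone. Over all CD45+ cells the ranges were -0.83 to -0.65 in Rnls mut and -0.61 to -0.11 in WT. For Rnls mut over WT they were 0.31 to 0.41 in all CD45+ cells and 0.33 to 0.48 in macrophages at day 10, and -0.26 to 0.24 and -0.19 to 0.28 at day 17. In none of the settings below was the cause of a change tested. Counts of calls in this section stand without the share of all genes and mostly without their direction. They show only how far the calls depended on the setting.

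With 1 graft left out, members called between the genotypes at day 10 numbered 0 in every cell group but CD8 T cells (0 to 7, the 7 without WT day 17 graft 3). At day 17 they numbered 0 except in all CD45+ cells (0 to 1, without that same graft) and granulocytes (0 to 1, without Rnls mut day 17 graft 1). From day 10 to day 17 in Rnls mut the counts ranged from 8 to 21 in all CD45+ cells, 0 to 11 in monocytes, 2 to 7 in dendritic cells, 0 to 0 in granulocytes, 5 to 18 in CD4 T cells, 1 to 15 in CD8 T cells, 2 to 8 in Treg, 0 to 1 in NK cells and 0 to 8 in ILC-1. In WT they ranged from 4 to 15 in all CD45+ cells, 3 to 22 in macrophages, 0 to 14 in monocytes, 1 to 4 in dendritic cells, 0 to 1 in granulocytes, 1 to 15 in CD4 T cells, 2 to 5 in CD8 T cells, 0 to 5 in Treg, 0 to 10 in NK cells and 0 to 1 in ILC-1. Without WT day 17 graft 3, whose spread every fit shares, the Rnls mut counts were 11 in monocytes, 7 in dendritic cells, 15 in CD8 T cells and 8 in Treg. Without Rnls mut day 17 graft 2 they were 8 in all CD45+ cells, 0 in monocytes, 2 in dendritic cells, 6 in CD4 T cells, 1 in CD8 T cells, 2 in Treg and 0 in ILC-1. The WT macrophage count of 8 was 3 to 5 without WT day 17 graft 1, 2 or 4 or WT day 10 graft 1 or 2, and the WT NK count of 3 was 0 without WT day 10 graft 1, 2 or 4 and 9 or 10 without WT day 17 graft 1 or 2. In monocytes of Rnls mut the count of 2 was also 0 without Rnls mut day 17 graft 1, 1 without Rnls mut day 17 graft 4 or day 10 graft 2, 3 or 4, and 5 without WT day 17 graft 1. In dendritic cells of Rnls mut it was 2 without Rnls mut day 17 graft 4, and in those of WT 2 without WT day 10 graft 1 or day 17 graft 1 and 4 without WT day 17 graft 2. In WT granulocytes it was 1 without Rnls mut day 17 graft 1, WT day 10 graft 4 or WT day 17 graft 4. In CD4 T cells it was 1 in WT without WT day 10 graft 2 or 3 and 6 without WT day 17 graft 1, and in Rnls mut 7 without Rnls mut day 10 graft 2 and 5 without Rnls mut day 17 graft 1. In CD8 T cells it was 2 in WT without WT day 10 graft 1 or 3, and in Rnls mut 2 without Rnls mut day 17 graft 1 and 9 without WT day 17 graft 2. In Treg of Rnls mut it was 3 without Rnls mut day 10 graft 3 or day 17 graft 1. In NK cells it was 1 in WT without WT day 17 graft 4 and 1 in Rnls mut without WT day 17 graft 1 or 2. In ILC-1 it was 1 in WT without Rnls mut day 10 graft 1 or 3, and in Rnls mut 3 without Rnls mut day 10 graft 3, 1 without Rnls mut day 17 graft 3 and 8 without WT day 17 graft 1 or 2. Single members that changed sign without WT day 17 graft 3 ranged, for Rnls mut over WT at day 17, from -0.58 to 0.12 (Pfkl, all CD45+ cells), -0.52 to 0.050 (Pfkl) and -0.58 to 0.0075 (Pgam1) in macrophages, -1.70 to 0.16 (Pgam1) and -1.35 to 0.053 (Gpi1) in monocytes, -2.49 to 0.082 (Ankrd37) in CD4 T cells, -0.86 to 0.31 (Gapdh), -1.71 to 1.52 (Tpi1) and -1.43 to 0.13 (Pgam1) in Treg, and -1.25 to 0.091 (Gapdh) and -1.36 to 0.24 (Pkm) in NK cells. Egln1 in WT monocytes between the days ranged from -0.12 to 1.65. Where leaving out a graft left 1 in a group (granulocytes of WT day 17, ILC-1), that graft was assumed to vary like the others.

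With each day alone, calls between the genotypes at day 10 numbered 2 in all CD45+ cells, 4 in CD4 T cells, 9 in CD8 T cells and 4 in NK cells, against 0 in each. Without a filter on low counts they numbered 4 in CD4 T cells, 8 in CD8 T cells and 3 in NK cells at day 10, and 1 each in monocytes, granulocytes, CD8 T cells and NK cells and 11 in CD4 T cells at day 17. For the days that setting gave 3 in monocytes, 4 in dendritic cells, 8 in CD4 T cells, 12 in NK cells and 1 in ILC-1 of WT, and 16 in monocytes, 14 in dendritic cells, 15 in CD8 T cells, 9 in Treg and 2 in NK cells of Rnls mut. A minimum of 20 cells gave 7 in CD8 T cells between the genotypes at day 10, 1 in monocytes, 2 in dendritic cells and 15 in CD8 T cells between the days in Rnls mut, and 1 in NK cells of WT. A minimum of 1 cell turned the day 17 genotype difference of Ldha (-0.24) and Gapdh (-0.35) in granulocytes and of Aldoa (-0.29) in ILC-1. Without the 6% highest doublet scores, 5 were called in WT and 7 in Rnls mut dendritic cells and 8 in Rnls mut ILC-1. DESeq2 called 1 each in granulocytes, CD4 T cells, NK cells and ILC-1 of WT. Library sizes alone gave 1 in granulocytes and 6 in NK cells of WT, and 7 in CD4 T cells and 3 in ILC-1 of Rnls mut. That scaling turned the median of the members between the days from -0.02 to 0.06 in all CD45+ cells and from -0.07 to 0.07 in Treg of WT, and from -0.04 to 0.04 in granulocytes of Rnls mut. With the replicate block, calls in ILC-1 of Rnls mut numbered 1 against 5, and the block moved no other count of calls by over 1.5 times.

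Genotype, day and library cannot be told apart in this design, since each library held 1 group. Counts of UMIs in granulocytes, Treg and ILC-1 left between 22 and 13 of the 34 members tested, and a difference in the others was not detectable at this depth.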
